A study of Mus musculus with 4 samples.

Results

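The motile cilia genes are 37 of the 30142 genes that were measured by a feature with 1 gene symbol. They were taken by name from the array's annotation: every symbol that begins with Dnah, Rsph, Tekt or Cfap and a digit, together with Foxj1, Tppp3, Dnali1, Ccdc39, Ccdc40, Spag6l and Hydin. The rule reads names and no signal, although it was written with earlier results of these data known. Of the 7 genes given by name, 5 were found. Foxj1, which encodes the forkhead transcription factor that drives the motile cilia programme, shares its feature with the neighbouring gene Rnf157, so no value is given for it. Spag6l is listed in the annotation under the older name Spag6, and it is described with 27 further genes that carry a member's name only in a newer annotation.

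Lung RNA came from male C57BL mice, an inbred laboratory strain, whose exposure began at 10 weeks of age. The animals breathed mainstream cigarette smoke, or clean air as controls, in daily sessions of 1 h, 5 days per week, for either 2 or 4 weeks, and had reached 12 or 14 weeks of age when lungs were taken. The 4 groups were 2 weeks of smoke (5 mice), the 2-week control (5 mice), 4 weeks of smoke (4 mice) and the 4-week control (5 mice), each mixed into 1 pool on 1 array. A pool hides the spread between animals, so no p-value accompanies a difference between 2 pools, which has no replicate check.

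Values are log2 signals, computed as if the deposited linear signals had been raised from base 2, a base that no source used here states. The highest deposited signal, 845602, has a log2 of 19.69 and a natural log of 13.65, and 623 features exceed 65535, the most that a 16-bit scanner records. These values do not settle which base was used. With base e a log2 difference would shrink to 0.69 of its printed size, with the same sign and the same limma p, and every fold below would be smaller. The median linear signal was 58.8 to 61.7 on the 4 arrays, whose small number sets the precision. Defining lung markers were bright: Sftpc, the surfactant protein C gene of alveolar type 2 cells, lay at log2 signals of 18.85 to 18.97, and Scgb1a1, the club cell secretoglobin, at 19.63 to 19.69. An expression floor was set at 5.82, the 40th percentile of all genes' mean log2 signals, which kept 18084 genes. It kept 32 of the 37 motile cilia genes. The member just above it was Tekt5, with a mean log2 signal of 6.18, and the one just under it was Dnah8, with 5.59. All 19 measured markers of multiciliated cells lay above the floor, against 1 of 10 spermatid markers, 2 of 6 basal cell markers and 1 of 5 markers of ependyma and choroid plexus.

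Motile cilia beat on the multiciliated cells of the conducting airways and move mucus toward the throat. Their core is the axoneme, a ring of microtubule doublets around a central apparatus. Dynein arms, motor complexes on the doublets, slide neighbouring doublets against each other, radial spokes pass signals between the centre and the arms, and tektins and other proteins line the inside of the doublets. Transcription of these genes is known to depend on FOXJ1 and on factors of the RFX family, which bind a site called the X-box. In whole lung, where such cells are a small part, fewer cells of a type and less RNA per cell cannot be told apart.

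The X-box letters are shown because they are what promoters of this gene set are known for. The 250 bases before each start site in RefSeq's promoter table (GRCm38.p6), which matched 31 of the 37 genes with 34 promoters, were searched on both strands for GTTGCCA, letters of the X-box, and for GTAAACA, the core of forkhead sites. The X-box letters stood in 6 of the 34 promoters, or 17.6%, against 3.66% of all 32851 promoters in the table. The forkhead letters stood in 3, or 8.82%, against 3.17% of all. The genes that carry a member's name only in a newer annotation had 27 promoters. Of these, 4 (14.8%) held the X-box letters and 1 (3.70%), near the share of all, the forkhead letters. A match is a description of the sequence and not a shown binding site. The members' matches to the X-box letters, in capitals, with the bases around them read 5′ to 3′ on the gene's strand, were these. TGGCAAC is the same motif on the opposite strand.

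Hydin (chr8:110266939-110266976, plus strand): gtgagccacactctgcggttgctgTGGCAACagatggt
Tekt1 (chr11:72361883-72361921, minus strand): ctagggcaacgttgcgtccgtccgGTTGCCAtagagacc
Cfap20 (chr8:95434934-95434988, minus strand): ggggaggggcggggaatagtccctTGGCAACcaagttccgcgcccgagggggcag
Cfap300 (chr9:8042968-8043022, minus strand): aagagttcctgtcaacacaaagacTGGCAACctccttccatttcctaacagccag
Cfap58 (chr19:47937629-47937683, plus strand): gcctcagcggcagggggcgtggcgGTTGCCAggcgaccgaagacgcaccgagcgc
Cfap97d2 (chr8:13705845-13705888, plus strand): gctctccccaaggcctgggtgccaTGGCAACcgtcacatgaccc

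The capitals begin between 14 and 123 bases before the start site. Hydin and Tekt1 carry them nearest to it, at 14 and 15 bases. Among the members the forkhead letters stood before Cfap20, Dnah17 and Tekt3, of which Dnah17 and Tekt3 lay under the expression floor. In Cfap20, which held both motifs, they did not overlap.

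After 2 weeks, 29 of the 32 motile cilia genes above the floor had a higher signal in the smoke pool than in the control pool of the same age, where 51.3% of all genes did. The differences were small. Their median was 0.12 on the log2 scale against 0.01 over all genes and 0.02 over protein-coding genes, and they ran from -0.12 to 0.39. Of the protein-coding genes 56.4% were higher. None of the 32 reached a 1.5-fold difference, where 3.04% of all genes did (1.16% with base e). After 4 weeks, 24 of the 32 were lower under smoke than in the control of that age, where 53.5% of all genes and 61.1% of protein-coding genes were. The median was -0.06 against -0.02 over all genes and -0.05 over protein-coding genes, so the size lay near that background. The range was -0.39 to 0.07, and again none reached 1.5-fold (4.04% of all genes did). In 22 of the 32 the signal was higher at 2 weeks and lower at 4 weeks. This was the pattern of 24.2% of all genes and of 3591 of the 12581 protein-coding genes.

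**Figure D1:**
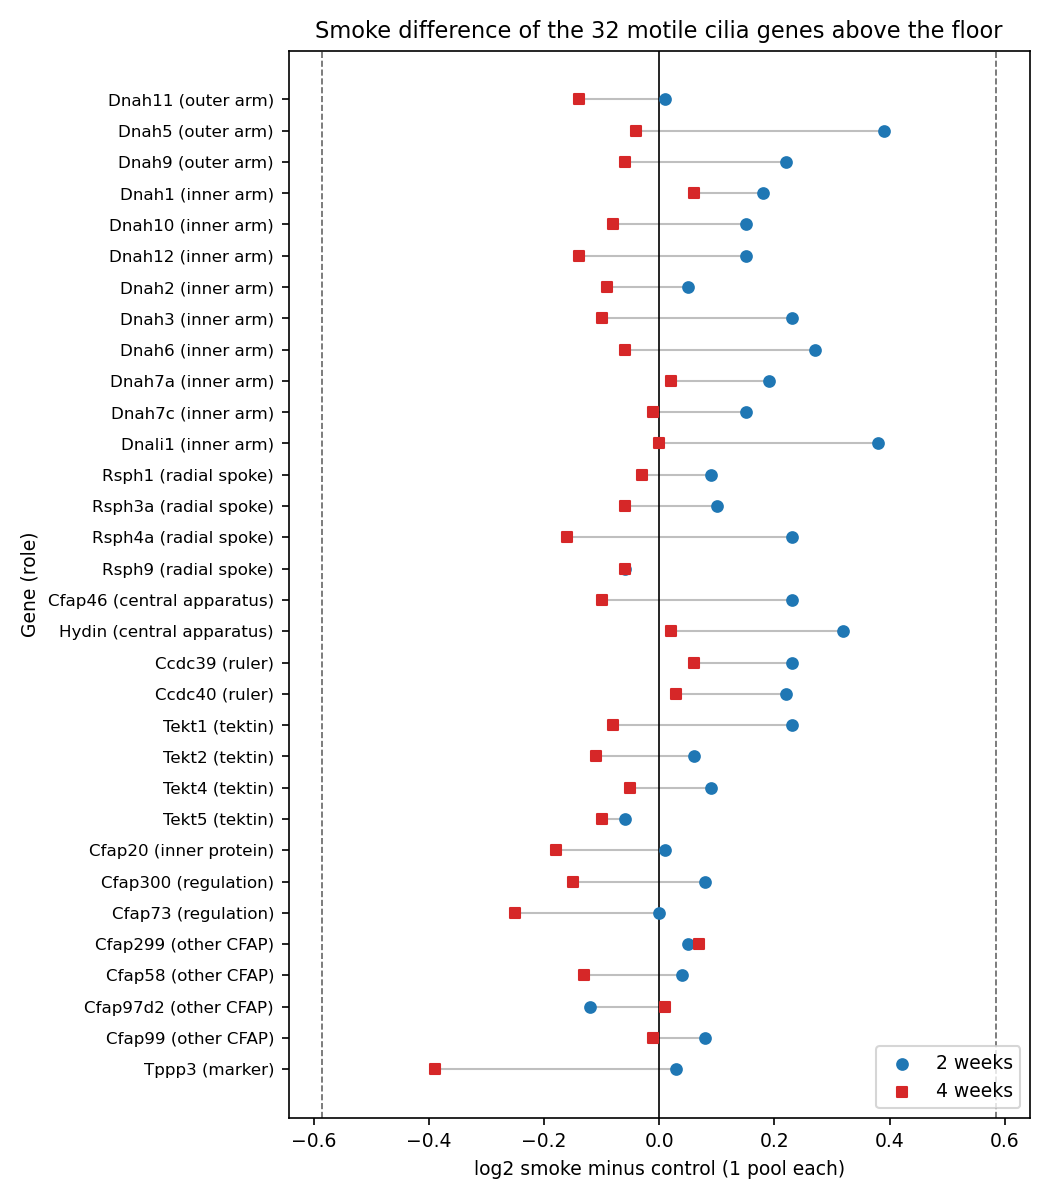
Log2 smoke minus control of each motile cilia gene above the floor (horizontal axis) after 2 weeks (circles) and 4 weeks (squares), 1 pool per group, with genes and roles down the page and dashed lines at a 1.5-fold difference on base 2. Of the 32 circles 29 lie above 0, of the 32 squares 24 lie below 0, and no point reaches a dashed line.

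A joint smoke effect for the 2 durations was fitted by limma to all 18084 genes, with terms for smoke and duration over the 4 arrays. The change of the smoke difference between the durations serves as the error there, with 1 residual degree of freedom. At a Benjamini-Hochberg adjusted p of 0.05, 1.47% of all genes passed and 0 of the 32 motile cilia genes did. None had an unadjusted p under 0.05, where 11.6% of all genes had, and the lowest adjusted p among the 32 was 0.68, that of Dnali1. Opposite differences at the 2 durations cancel in this effect and widen its error, so the fit cannot judge a difference at either duration alone.

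Dynein heavy chains are the motors themselves. Of the 14 in the set, 11 lay above the floor. All 11 were higher in the 2-week smoke pool, against 51.3% of all genes and 56.4% of protein-coding genes, with a median difference of 0.18. After 4 weeks of smoke 9 of the 11 were lower, against 53.5% of all genes and 61.1% of protein-coding genes. Their median was then -0.06, near the -0.05 over protein-coding genes. Dnah5, an outer arm chain whose human counterpart is often mutated in primary ciliary dyskinesia, showed the widest difference at 2 weeks. Its log2 signal was 10.99 in the 2-week smoke pool and 10.60 in the 2-week control, and it was 10.63 in the 4-week smoke pool and 10.67 in the 4-week control. The 2-week smoke pool stood apart from the other three, and the difference was 0.39, or 1.31-fold (1.21-fold with base e), at 2 weeks and -0.04 at 4 weeks. Over both durations the limma effect was 0.18 ± 0.131 (SE, adjusted p = 0.725, 2 smoke and 2 control pools).

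Among the other outer arm chains, Dnah9 was at 9.05 in the 2-week smoke pool against 8.83 in its control and at 8.89 in the 4-week smoke pool against 8.95 in its control. Dnah11 hardly differed at 2 weeks, with 8.83 under smoke and 8.81 in the control, and was at 8.60 under smoke and 8.74 in the control at 4 weeks. Dnah8 and Dnah17, outer arm chains known from sperm flagella, stayed under the expression floor.

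The inner arm chains had median differences of 0.18 at 2 weeks and -0.06 at 4 weeks over 9 genes. Dnah6 had log2 signals of 11.47 and 11.19 in the 2-week smoke and control pools and of 11.02 and 11.08 in the 4-week smoke and control pools. Dnah3 differed by 0.23 and then by -0.10, and Dnah12 by 0.15 and then by -0.14. Dnah12 was highest in the 2-week smoke pool, at 10.56, and lowest in the 4-week smoke pool, at 10.12.

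The signals of Dnah7a and Dnah7c, with differences of 0.19 and 0.15 at 2 weeks and of 0.02 and -0.01 at 4 weeks, are uncertain as separate values because the genes are near-identical copies, and a feature that lists Dnah7b with Dnah7c was left out. Dnah1 (0.18 and 0.06), Dnah10 (0.15 and -0.08) and Dnah2 (0.05 and -0.09) make up the rest above the floor, and Dnah14 lay under it. Dnali1 encodes an inner arm light chain, and here the 2-week control was the pool that stood apart. Its log2 signal was 8.54 in the 2-week smoke pool against 8.16 in the 2-week control, and 8.54 in both the 4-week smoke pool and the 4-week control. The limma effect of Dnali1 was 0.19 ± 0.125 (SE, adjusted p = 0.68).

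Radial spoke genes had median differences of 0.09 and -0.06 over 4 genes. Rsph4a, a spoke head gene, had the widest swing of them, with 11.75 in the 2-week smoke pool against 11.53 in its control and 11.66 in the 4-week smoke pool against 11.81 in its control. Its smoke difference was 0.38 lower at 4 weeks than at 2 weeks, among the 3 most negative changes with Dnah5 (-0.43) and Tppp3 (-0.42). The spoke head genes Rsph1 (0.09 and -0.03) and Rsph9 (-0.06 and -0.06) and the spoke stalk gene Rsph3a (0.10 and -0.06) stayed within 0.10 of their controls. Rsph3a has a near-identical copy, Rsph3b, so its value is uncertain, and Rsph6a, a spoke gene of sperm, lay under the floor.

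Of the central apparatus genes, Hydin was at 10.15 in the 2-week smoke pool and 9.84 in its control, and at 10.04 in the 4-week smoke pool and 10.02 in its control. The 2-week pools bracketed the 4-week pools. Its limma effect was 0.17 ± 0.116 (SE, adjusted p = 0.698). Cfap46, a central apparatus gene by work in the alga Chlamydomonas, differed by 0.23 and then by -0.10.

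Ccdc39 and Ccdc40 encode a pair of coiled-coil proteins that act together as a ruler along the doublet and set where spokes and inner arms attach. Ccdc39 was at 10.26 in the 2-week smoke pool against 10.03 in its control and at 10.06 in the 4-week smoke pool against 9.99 in its control. Ccdc40 was at 8.31 against 8.10 at 2 weeks and at 8.33 against 8.30 at 4 weeks, smoke before control. These partners were among the 7 members that were higher under smoke at both durations, and their differences matched to within 0.03 at either one.

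Tektins form filaments inside the doublet, and their medians were 0.07 and -0.09 over 4 genes. Tekt1, their member with the highest mean smoke difference, was at 7.60 in the 2-week smoke pool against 7.37 in its control and at 7.68 in the 4-week smoke pool against 7.77 in its control. As for Dnali1, the 2-week control was the low pool. Tekt2 differed by 0.06 and -0.11, Tekt4 by 0.09 and -0.05 and Tekt5 by -0.06 and -0.10, and Tekt3 lay under the floor.

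The remaining members are CFAP genes, named for proteins associated with cilia and flagella. Cfap20, which encodes a protein at the inner junction of the doublet, differed by 0.01 and -0.18. Cfap300, which takes part in dynein arm assembly, differed by 0.08 and -0.15, and Cfap73, a modifier of inner arms in Chlamydomonas, by 0.00 and -0.25. Cfap299, Cfap58, Cfap97d2 and Cfap99 ran from -0.12 to 0.08 at 2 weeks and from -0.13 to 0.07 at 4 weeks. Cfap97d2 was the member with the most positive change between durations, 0.13, followed by Cfap299 at 0.01 and Rsph9 at 0.00. The members with X-box letters in their promoters did not share a size of difference: at 2 weeks Hydin and Tekt1 were at 0.32 and 0.23, while Cfap20, Cfap300, Cfap58 and Cfap97d2 lay between -0.12 and 0.08.

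Tppp3 encodes a microtubule-binding protein used as a marker of multiciliated cells. It was at 9.52 in the 2-week smoke pool and 9.49 in its control, and at 9.48 in the 4-week smoke pool and 9.87 in its control. The 4-week control was the only pool that stood apart, and the 4-week difference of -0.39, or 1.31-fold lower under smoke (1.21-fold with base e), was the most negative of the 32. Its limma effect was -0.18 ± 0.131 (SE, adjusted p = 0.721). At a lower threshold of 1.3-fold, Dnah5 was the only member higher at 2 weeks, where 4.55% of all genes were, and Tppp3 the only one lower at 4 weeks, where 5.19% were. With base e 0 members passed that threshold in either comparison.

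Control pools were compared to show how far the same genes differed without smoke. Between the 4-week and the 2-week control, which also differed in age, 25 of the 32 were higher in the 4-week pool, against 52.1% of all genes and 59.2% of protein-coding genes, with a median of 0.10 against 0.01 over all and 0.04 over protein-coding genes. The range was -0.15 to 0.40, and none reached 1.5-fold (4.09% of all genes did). Tekt1 (0.40) and Tppp3 (0.38) were at least 1.3-fold higher, where 6.12% of all genes were. This comparison and that of smoke at 2 weeks use the same 2-week control array. That array held the lowest of the 4 signals in 16 of the 32 genes, and the highest in 1. It held the lowest in 30.4% of all genes and in 4415 of the 12581 protein-coding genes. The 2-week smoke array held the highest signal in 16 of the 32, against 18.4% of all genes and 2414 of the 12581 protein-coding genes. The median deviation from a gene's own mean over the pools was 0.05 under smoke and -0.06 in the control at 2 weeks, and -0.03 under smoke and 0.04 in the control at 4 weeks.

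**Figure D2:**
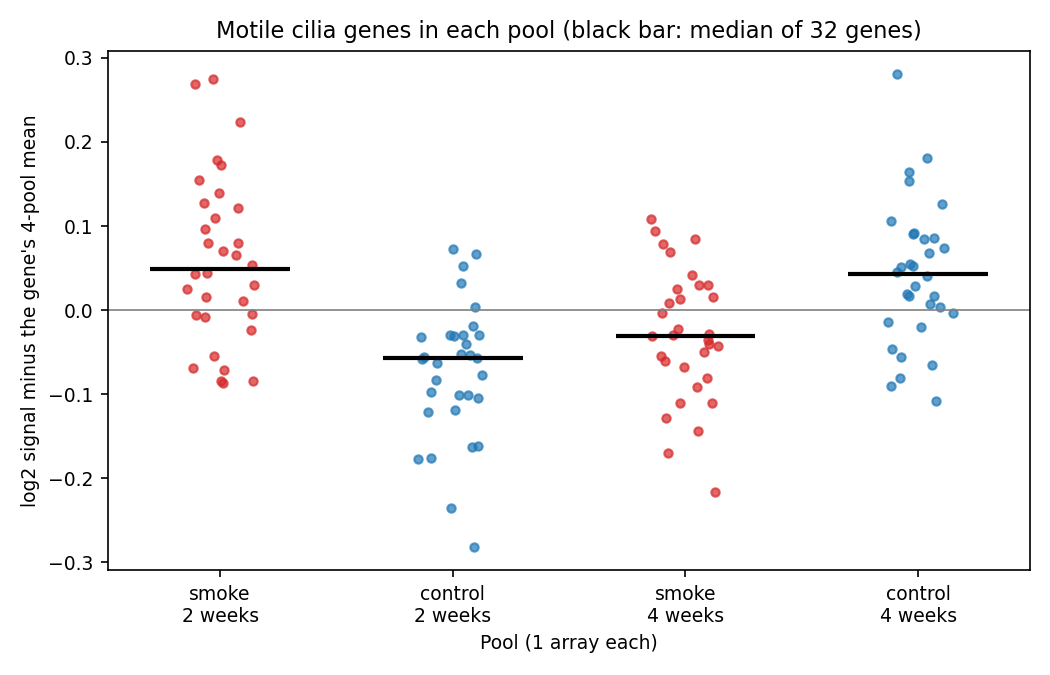
Log2 signal of each of the 32 motile cilia genes minus that gene's mean over the 4 pools (vertical axis), by pool, 1 array each, with points for genes and a black bar for the median. The medians lie between -0.06 in the 2-week control and 0.05 in the 2-week smoke pool, and the spread of the genes within each pool is wider than the gaps between the medians.

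The smoke difference was lower at 4 weeks than at 2 weeks in 29 of the 32, against 56.8% of all genes and 67.2% of protein-coding genes, with a median change of -0.18 against -0.04 over all and -0.08 over protein-coding genes. With 1 array in each group this change has no error of its own. Across the 32 genes the differences at 2 and 4 weeks, which share no array, had a Pearson correlation of 0.33 and a Spearman correlation of 0.33, against 0.43 and 0.23 over all genes above the floor. Genes are not independent replicates, and each difference rests on 1 pair of arrays.

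**Figure D3:**
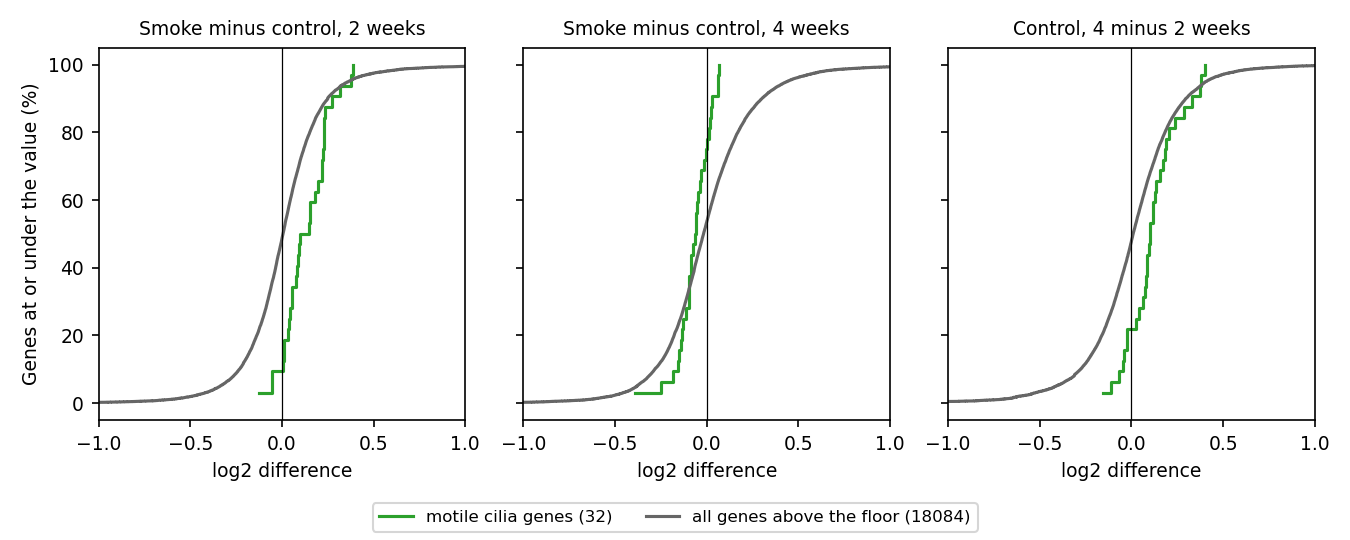
Share of genes at or under a log2 difference (vertical axis, percent) for the 32 motile cilia genes and for all 18084 genes above the floor, in 3 comparisons of pools, with the horizontal axis limited to 1 log2 unit either way. The members' curve lies right of that of all genes around 0 at 2 weeks, with a median of 0.12 against 0.01, and spans a narrower range than all genes in each panel.

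In a newer annotation (RefSeq, GRCm38.p6), 28 further genes carry a name of the same kind, and 27 of them lay above the floor. At 2 weeks, 24 of the 27 were higher in the smoke pool, against 51.3% of all genes and 56.4% of protein-coding genes. Their median was 0.18 and their range -0.08 to 0.49. At 4 weeks, 10 of the 27 were lower, against 53.5% of all genes and 61.1% of protein-coding genes. The median was then 0.02 and the range -0.19 to 0.43. Over the 59 genes of both kinds, 53 were higher at 2 weeks (median 0.16) and 34 lower at 4 weeks (median -0.01). The count of 34 lay near the 4-week shares over all and protein-coding genes.

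Spag6l, a central apparatus gene, was at 9.93 in the 2-week smoke pool and 9.80 in its control, and at 9.97 in the 4-week smoke pool and 10.00 in its control. With limma 0 of the 27 passed. An unadjusted p under 0.05 was found for 3, all higher under smoke, a count near the 11.6% of all genes. These 3 are named after their values were seen. Cfap126, which encodes an inner protein of the doublet, was at 8.37 against 7.92 at 2 weeks and 8.70 against 8.26 at 4 weeks, smoke before control, a limma effect of 0.44 ± 0.101 (SE, adjusted p = 0.131). Cfap43, needed for ciliary and sperm flagellar beating, had an effect of 0.39 (adjusted p = 0.212) and Rsph14, a radial spoke gene, of 0.32 (adjusted p = 0.279).

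Other genes of the axoneme and of its assembly were compared from lists of known components, and the 2 genes named for a list are those with its highest and lowest mean smoke difference. Among all genes 51.3% were higher at 2 weeks, 53.5% lower at 4 weeks and 52.1% higher in the 4-week control. Dynein preassembly genes, whose products fold the arms in the cytoplasm, were higher in the 2-week smoke pool in 9 of 9, with a median of 0.24, and lower at 4 weeks in 7 of 9, with a median of -0.03. Between the controls all 9 had the higher signal at 4 weeks, with a median of 0.16. The named genes were Dnaaf3 (0.44 and -0.01, and 0.58 between the controls) and Zmynd10 (0.19 and -0.22). The nexin-dynein regulatory complex, which links neighbouring doublets, had medians of 0.22 and 0.03 over 10 genes, with Drc3 (0.42 and 0.13) and Iqcd (-0.13 and 0.03) named. All 10 were higher in the 4-week control, and 1 of them, Ccdc65 (0.67), at least 1.5-fold. Other central apparatus genes had medians of 0.20 and -0.05 over 6 genes, with Ak7 (0.24 and 0.10) and Ak8 (0.03 and -0.20) named, and all 6 were higher in the 4-week control. Dynein intermediate and light chains and docking genes had medians of 0.16 and -0.04 over 6 genes, with Ttc25 (0.32 and 0.14) and Dnal1 (-0.04 and -0.15) named. In these 4 lists 0 genes passed with limma, and 0 had an unadjusted p under 0.05.

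The multiciliogenesis programme comprises the regulators that commit a cell to many cilia. Its 11 genes above the floor had medians of 0.14 and -0.03, and 0 passed with limma. For 1 the unadjusted p was under 0.05, as for 11.6% of all genes. Myb, a transcription factor of that programme, was at 9.20 in the 2-week smoke pool against 8.74 in its control and at 8.87 in the 4-week smoke pool against 8.72 in its control (limma effect 0.31 ± 0.117, SE, adjusted p = 0.377). Rfx2, an X-box factor, was at 0.14 and -0.26. Mcidas and Ccno, early regulators of centriole multiplication, lay under the floor. Intraflagellar transport genes, which serve nonmotile cilia as well, had medians of 0.09 and -0.04 over 22 genes, of which 0 passed and 1 had an unadjusted p under 0.05. Ift22 (0.27 and 0.32) had their highest mean smoke difference and Ttc21b (-0.06 and -0.28) the lowest.

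Of 19 other markers of multiciliated cells, 18 were higher in the 2-week smoke pool, where 51.3% of all genes were. At 4 weeks 6 were lower, where 53.5% of all genes were. The medians were 0.24 and 0.06. Between the controls 15 of the 19 were higher in the 4-week pool, against 52.1% of all genes, with a median of 0.10. In that comparison 4 were at least 1.5-fold higher, where 1.85% of all genes were. Under smoke at 2 weeks 2 were so (Cdhr4 and Dynlrb2), where 1.82% of all genes were. Only Cdhr4, a cadherin-related gene, passed, and it rose by 0.89 ± 0.122 (SE, limma adjusted p = 0.029), where 1.15% of all genes rose. Of the 19, 4 had a limma unadjusted p under 0.05, where 11.6% of all genes did. Cdhr4 was at 9.94 in the 2-week smoke pool against 8.87 in its control and at 10.27 in the 4-week smoke pool against 9.56 in its control, and it also differed between the control pools, by 0.68. The limma call was lost after cyclic loess (adjusted p = 0.0722), after median centring (0.0595) and without the duration term (0.534). It held with no floor (0.0326) and with protein-coding genes alone (9.76e-05). Fits that left out a pool also dropped the duration term, so they cannot show what the pool alone did. The effect of Cdhr4 there ran from 0.55 (without the 2-week control) to 1.23 (without the 4-week control). Mns1 had the lowest mean smoke difference of the list (-0.13 and -0.06). The summed linear signal of the list was 21671 against 16610 at 2 weeks and 22758 against 20314 at 4 weeks, smoke before control. The largest part of each sum was Cdhr3, at 10689.8 against 7483.7 and 11649.6 against 10070.0.

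**Figure D4:**
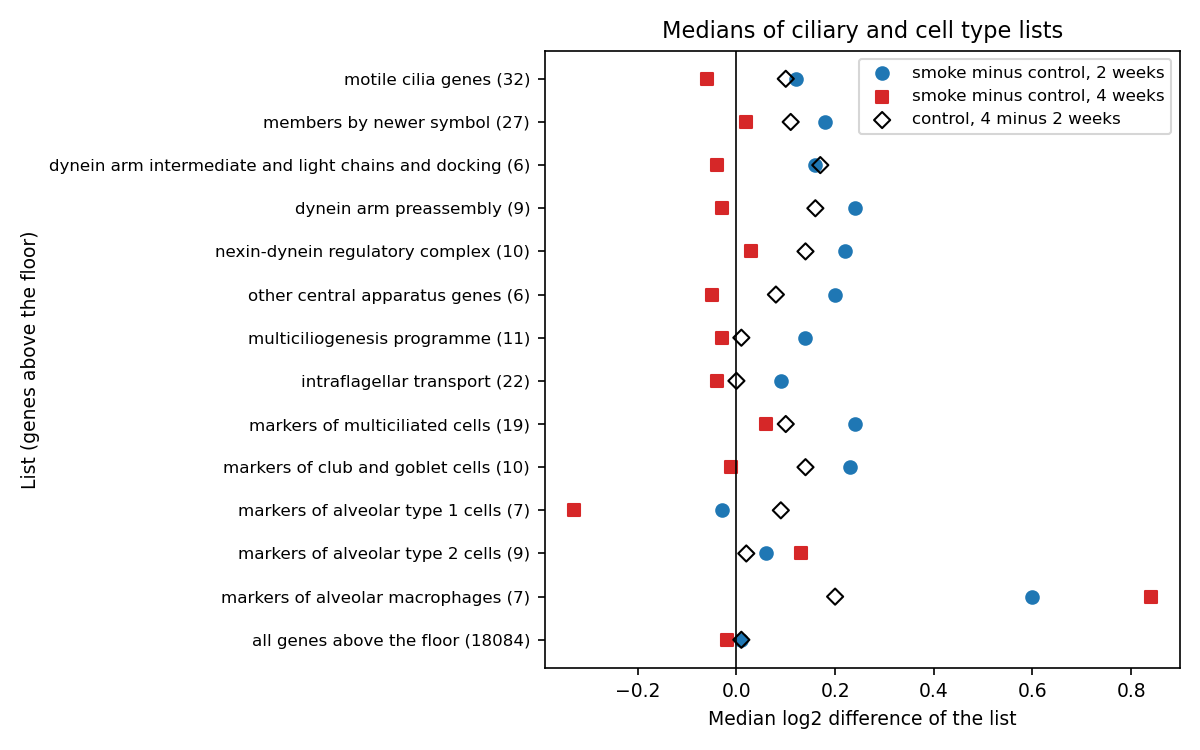
Median log2 difference (horizontal axis) of each ciliary or cell type list, with the number of genes above the floor in brackets, for smoke minus control at 2 weeks (circles) and 4 weeks (squares) and for the 4-week minus the 2-week control (open diamonds). The circles of the ciliary lists lie between 0.09 and 0.24, and their squares between -0.06 and 0.06.

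Markers of the secretory cells of the same airways also differed between the pools. Of 10 club and goblet cell markers above the floor, 4 were at least 1.5-fold higher in the 2-week smoke pool, 1 was at 4 weeks, and 3 were in the 4-week against the 2-week control, with medians of 0.23, -0.01 and 0.14. The same fold was passed upward by 1.82%, 2.53% and 1.85% of all genes in these comparisons. Scgb3a1, an airway secretoglobin, was at 15.25 in the 2-week smoke pool against 13.29 in its control and at 15.19 in the 4-week smoke pool against 14.58 in its control. Aldh1a1, an aldehyde dehydrogenase, had the lowest mean smoke difference of the list (-0.20 and -0.19). With limma 0 of the 10 passed, and 3 had an unadjusted p under 0.05, where 11.6% of all genes did. The summed linear signal of the list was 1468856, 1435113, 1509199 and 1561709 in the 2-week smoke, 2-week control, 4-week smoke and 4-week control pools. The largest part of each sum was Scgb1a1, at 822496.5, 812123.7, 839825.5 and 845602.4, so the sums say little of fainter genes such as Scgb3a1. For the motile cilia genes the sum was 23055, 20265, 20439 and 21723 in that order of pools. The part of the secretory markers in the differences of the motile cilia genes was not tested. Alveolar macrophage markers had medians of 0.60 and 0.84 over 7 genes. Of these, Marco, Itgax, Fabp5 and Mrc1 rose with limma, by 0.77 to 2.70 (adjusted p = 0.00286 to 0.0444), where 1.15% of all genes rose. Marco (2.22 and 3.17) had the highest mean smoke difference of the list and Siglecf (-0.13 and 0.13) the lowest. Alveolar type 2 markers had medians of 0.06 and 0.13 over 9 genes. Of these 1, Sftpd, rose by 1.03 (limma adjusted p = 0.0303), and it had the highest mean smoke difference of the list. Lyz1 (-0.17 and 0.15) had the lowest. Alveolar type 1 markers had medians of -0.03 and -0.33 over 7 genes, and 0 passed. Of these, 3 had an unadjusted p under 0.05, where 11.6% of all genes did. Pdpn (0.09 and 0.11) had the highest mean smoke difference of the list and Akap5 (-0.28 and -0.60) the lowest.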

How the data were processed

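Whole-lung RNA of 4 pools was measured, 1 array each, grouped by the sample titles. The authors deposited linear intensities, with RMA and Affymetrix Expression Console (1.4.1) named in the submitters' processing notes. RMA's quantile step aligns the arrays, which hides any shift common to all genes of a pool. A genome build, a filter and the base of the linear scale were not given in the sources used here. The plan had allowed for deposited log2 values, and the log2 of each deposited intensity was taken instead.

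Of 65956 features, 30604 had 1 gene symbol, a symbol repeated for a feature counting as 1, 2146 had several and 33206 were not listed. Members were taken by the annotation's symbols. Other genes were renamed through the Entrez ID with RefSeq (GRCm38.p6), which matched 22818 features and changed 827 symbols. The feature with the highest mean was used per gene, and 1 member, Tekt2, had over 1 feature. The table held 0 columns of other samples.

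Differences are log2 smoke minus control per duration. limma 3.58.1 (R 4.3.3, lmFit and eBayes, prior of 5.38 degrees of freedom) was fitted to all genes above the floor, with Benjamini-Hochberg adjustment. It was run on simulated data whose changes were 1.5-fold or more and the same at both durations. That run does not cover smaller differences, or ones that change between durations, such as those of the members. Alternatives were cyclic loess, median-centred differences, no floor or the 60th percentile, an offset of 16, the mean of a gene's features, updated symbols, no duration term, protein-coding genes only, other folds, leaving out each pool and, chosen after seeing the data, base e. The members and lists were chosen with earlier results of these data known. By rule the text names the members given by name and those past 1.5-fold. It also names the genes with the highest and lowest mean smoke difference of each role or list and any gene of these passing limma. The 3 most positive and most negative changes between durations are named as well. No gene was named for the basal cell, spermatid or ependyma and choroid plexus markers, which were described by counts. Other genes were named after their values were seen.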

Additional observations from a re-analysis of the deposited data

Results flagged for a closer look

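The median smoke difference of the motile cilia genes was 0.12 at 2 weeks and -0.06 at 4 weeks, a median change of -0.18 that was not tested, since each group was 1 pool. The 4-week median lay near that of all protein-coding genes, -0.05, for which the median change was -0.08. At 4 weeks the 27 genes known by a newer symbol had a median of 0.02, the 59 genes of both kinds -0.01, and the 19 markers of multiciliated cells 0.06. Among the members, Dnah12 (a change of -0.29) and Rsph4a (a change of -0.38) differed by at least 0.1 in opposite directions at the 2 durations, which was likewise not tested.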

How the results depend on the processing

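Animals or replicates could not be paired, because each group was 1 pool with no replicate number, and pools were paired by duration alone. The duration term of limma sets each smoke pool beside the control of its own duration. The count of members past 1.5-fold was 0 in each comparison, as it was at 2-fold. At 1.3-fold it was 1 at 2 weeks, 1 at 4 weeks and 2 between the control pools. With limma 0 members passed under each alternative run, including the fits without 1 pool, where dropping the 4-week control left 1 member below an unadjusted p of 0.05. Over all genes the limma count was 265, against 72 after cyclic loess, 120 after median centring, 882 with protein-coding genes only and 0 when duration was not a term, with 1163 genes then below an unadjusted p of 0.05. In fits of smoke alone to 3 pools, without the 2-week smoke, 2-week control, 4-week smoke or 4-week control pool it was 0, 6, 0 and 34, and 1469, 1024, 597 and 1449 genes fell below that unadjusted p. The lone pool of an arm is assumed there to vary like the other arm. The members' median ran from 0.09 (no floor) to 0.17 (60th percentile) at 2 weeks and from -0.06 to -0.01 (updated symbols) at 4 weeks. After cyclic loess the medians were 0.14 and -0.03, with 29 members higher at 2 weeks and 21 lower at 4 weeks, the median of all genes between the control pools was 0.06, and the 4-week difference of Dnah5 was 0.02 instead of -0.04. The cause was not tested. With base e, an alternative chosen after seeing the data, the medians were 0.09 and -0.04 and 0 members passed 1.5-fold. With no replicate pools, a median was counted as moved when it shifted by over 0.10, its size between the control pools.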
